A study of Mus musculus with 24 samples.

Results

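The data described here are the response to heat of mouse embryonic fibroblasts that lack CHIP, a ubiquitin ligase and co-chaperone encoded by Stub1. They come from 6 of the 24 two-colour microarrays of the series: 3 arrays of CHIP null cultures heated at 43 °C and 3 arrays of CHIP null cultures kept at 37 °C, all labelled 30 min, chosen by those labels alone. The parents were C57BL6 mice heterozygous for CHIP, and cells were taken from their embryos at day 13.5. The heated and control cultures of this set are CHIP null by their labels. Each RNA sample, labelled with Cy5, was hybridised together with one common Cy3-labelled reference, the Universal Mouse Reference RNA of Stratagene. A level below is the log2 ratio of the sample to that reference, and a change is the mean of the 3 heated arrays minus the mean of the 3 control arrays. For comparison, 3 heated and 3 control wildtype arrays labelled 30 min and 3 heated and 3 control CHIP null arrays labelled 240 min were used, with the same temperatures. The labels call the 3 samples of a group biological replicates, without saying whether they came from separate embryos.

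Heat shock denatures proteins, and in mammalian cells the transcription factor HSF1 then activates genes of the HSP70, HSP90, HSP40, HSP60 and small heat shock protein families by binding heat shock elements, which are inverted repeats of the short unit GAA. Chaperones of the HSP70 family bind exposed hydrophobic stretches, J-domain proteins deliver clients to them, and the HSP60 and HSP10 proteins form a folding chamber in mitochondria. CHIP binds the tails of HSP70 and HSP90 and attaches ubiquitin to their clients, and it is also known to act on HSF1. The title of the series names an interaction of CHIP with Daxx, a protein that binds HIPK kinases, and the programme of cell death driven by p53, so genes of that pathway are described as well.

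Genotype and time labels were checked first. Stub1 stood at -1.73, -1.72 and -1.92 on the heated CHIP null arrays and at -2.12, -1.94 and -2.04 on their controls, against -0.04, -0.01 and -0.08 on heated wildtype arrays and -0.24, -0.24 and -0.12 on wildtype controls. The null arrays thus lay below every wildtype array, and CHIP null minus wildtype was -1.74 with heat and -1.83 without. Within the null cultures the remaining Stub1 signal was higher with heat by 0.24 (limma adjusted p = 0.0112). That call was lost in 5 of 19 alternatives, among them median centring of the arrays, where the change relative to all genes was 0.02 (adjusted p = 0.259). Xist, the RNA that marks a silenced X chromosome in females, was well above background on all null arrays and on none of the wildtype arrays labelled 30 min, and the Y-linked genes showed the reverse, so sex and genotype cannot be told apart between these cultures. The time labels disagree between the deposited files: the 6 columns of the authors' value table that carry the 30 min names correlated with the scanner files of that label at 0.147 to 0.261 for heated cultures and at 0.898 or more for controls, whereas the columns named 240 min correlated with them at 0.998 or more across probes. The scanner-file labels are kept here, and which of the 2 times these cultures were heated for is not settled. The controls and heated replicate 1 shared a slide, while heated replicates 2 and 3 lay on another slide with wildtype controls. Probes well above background in Cy5 made up 37.4%, 33.7% and 35.2% of all probes on the heated arrays, against 41.6%, 39.9% and 42.6% on the control arrays. Replicate arrays correlated at 0.981 to 0.990 with heat and 0.990 to 0.991 without.

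One pair of heat shock genes shows how differently neighbouring members behaved, and its shared promoter is printed for that reason. Hspd1, the mitochondrial chaperonin HSP60, and Hspe1, its partner HSP10, are transcribed head to head on chromosome 1, so that one window lies before both starts. A heat shock element of 3 units was searched for as GAANNTTCNNGAA or TTCNNGAANNTTC in the 250 bases before each start of RefSeq's promoter table (GRCm38.p6), and 0.514% of the 27025 genes listed there held one. Of the 23 heat shock genes tested here that had a window, 2 held one, Hspd1 and Hspe1, through the same stretch at chr1:55088034-55088101, printed on the strand of Hspe1 with both overlapping matches in capitals.
Hspe1 and Hspd1 window: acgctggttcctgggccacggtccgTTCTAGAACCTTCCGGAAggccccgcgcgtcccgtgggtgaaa
The matches begin 89 and 84 bases before the start of Hspe1 and, on the other strand, 144 and 139 bases before that of Hspd1. Hspd1 fell and Hspe1 rose on these arrays, with the values given further on.

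A shorter search for 2 adjoining units, GAANNTTC or TTCNNGAA, found a match in 14.5% of all genes listed and in 7 of the 23 heat shock genes (30.4%). The 4 windows printed belong to members with opposite or unclear changes: Dnajb4 and Hsph1 fell, Hspb1 rose and Hspa1a did not pass the test. Each is given on its gene's own strand with the matches in capitals: Dnajb4 at chr3:152193846-152193899 and Hsph1 at chr5:149636322-149636409, both on the minus strand, Hspb1 at chr5:135887782-135887869 on the plus strand, and Hspa1a at chr17:34972213-34972300 on the minus strand.
Dnajb4: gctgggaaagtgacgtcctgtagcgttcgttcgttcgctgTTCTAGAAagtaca
Hsph1: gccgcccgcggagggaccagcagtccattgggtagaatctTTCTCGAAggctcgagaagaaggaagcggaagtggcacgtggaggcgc
Hspb1: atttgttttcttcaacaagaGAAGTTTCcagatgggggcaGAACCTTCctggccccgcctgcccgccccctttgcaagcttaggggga
Hspa1a: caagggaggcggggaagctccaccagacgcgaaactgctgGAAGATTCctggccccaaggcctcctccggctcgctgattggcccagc
A match is a description of these letters and not a measured binding site. Among genes with a window, a 3-unit match was held by 13 of 2142 called higher (0.607%) and 5 of 1264 called lower (0.396%). For all tested genes with a window it was 40 of 9638 (0.415%), so the called shares rest on few genes.

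Heated CHIP null fibroblasts differed from their controls at many genes by small amounts. Of 13488 genes and unnamed features tested, 4753 (35.2%) had a limma adjusted p below 0.05, of which 3052 (22.6% of those tested) were higher and 1701 (12.6%) lower with heat. Only 121 of them (0.897%) changed by more than 1.5-fold, 32 up and 89 down, and 6 by more than 2-fold. The median change over all genes was 0.03, the quartiles were -0.08 and 0.16, and the median standard error was 0.0688. For 4368 of the called genes the 3 heated arrays lay entirely on one side of the 3 control arrays, as they did upwards for 27.3% and downwards for 17.3% of all genes tested. With slide as a fixed block, the change rests on heated replicate 1 alone against the 3 controls. Heated replicates 2 and 3 share no slide with these controls. Keeping only slides with both treatments compares the same arrays. For these settings changes are given without a test, and they otherwise enter only tallies over all alternatives.

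The balance of rises and falls depended on the scaling of the arrays. Rises were 64.2% of calls after loess, 46.0% with the scanner software's own log ratios and 0.799% when each array was only centred on its median, which moved the median of all genes to -0.18. Rises also gathered among genes much dimmer in the sample than in the reference. Where the mean ratio to the reference was below -2, 77.9% of 399 genes rose and their median change was 0.35, against 13.2% of the 6354 genes with a ratio between 0 and 1. The scanner software's ratios called 24.8% of the same 399 genes higher. The part of the dye ratio in these rises was not tested. The bar plot of calls by ratio gives each range under both scalings.

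**Figure D1:**
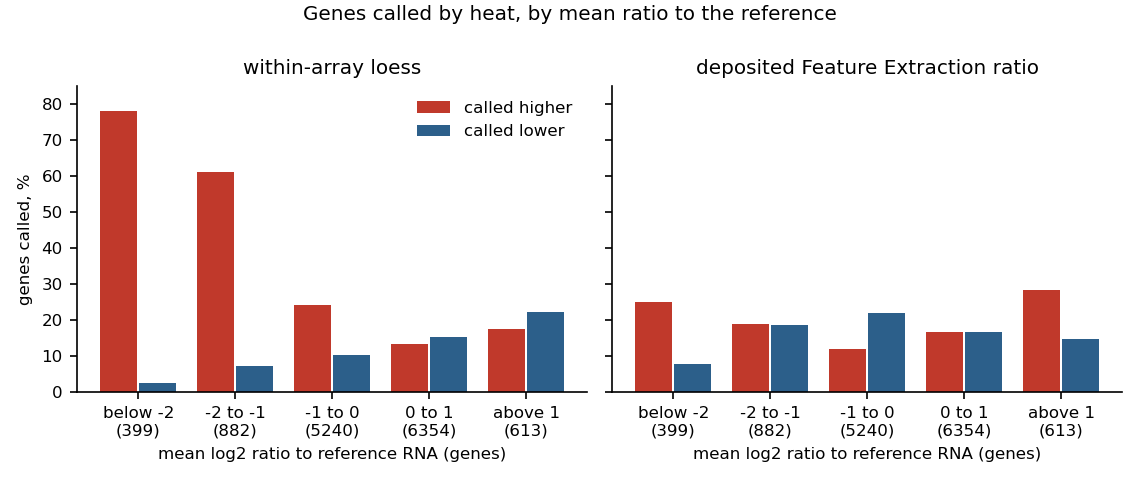
Share of genes called higher (red) and lower (blue) with heat in CHIP null fibroblasts labelled 30 min (percent of genes, vertical axis) by range of the mean log2 ratio of sample to reference (horizontal axis, number of genes in brackets), after loess on the left and with the scanner software's ratios on the right. After loess, rises are most frequent at the lowest ratios, 77.9% below -2, where the scanner software's ratios call 24.8% higher.

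Among the named genes the largest rise was that of Rmrp, the RNA component of the ribonuclease that processes mitochondrial primers and ribosomal RNA. Its level was 2.78, 3.05 and 2.95 on heated arrays, against 0.80, 1.11 and 0.81 on control arrays. That is a change of 2.03 (SE 0.13, adjusted p = 5.71e-12), with wide separation of the groups. C5ar2, a receptor for the complement fragment C5a, read 1.75, 1.37 and 1.39 on heated arrays and was not well above background on any control array, where it read -0.14, -0.03 and -0.19. It was called higher with heat (adjusted p = 1.22e-14), and no fold is given because the control signal has only an upper bound. Dusp26, a phosphatase of MAP kinases, stood at -1.33, -1.28 and -1.37 with heat and at -2.24, -2.12 and -2.29 without, a change of 0.89 (adjusted p = 4.73e-08). Neither C5ar2 nor Dusp26 has another probe to set beside these values. The 2 features without a RefSeq symbol that rose by more are not named here.

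The next genes in order had less uniform support. Grn, the growth factor progranulin, was higher by 0.79, with 0.76, 0.74 and 0.18 on heated arrays and -0.27, -0.08 and -0.34 on controls, and its other probe changed by 0.09 and was not called. Vps13a, a lipid transfer protein, was higher by 0.78, while its 3 other probes changed by -0.28 to -0.12 and 1 of them was called lower. Rusc1 was higher by 0.73 and its other probe by 0.15, which was not called. For these genes heated replicate 3 was the lowest heated array and the separation of the groups rested on a single probe. Cdkn1c, an inhibitor of cyclin-dependent kinases, was at -2.42, -2.44 and -2.66 with heat and at -3.15, -3.14 and -3.33 without, a change of 0.71 (adjusted p = 2.86e-06).

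The remaining large rises were genes of specialised tissues at low ratios to the reference. Apobec2, a muscle member of the cytidine deaminase family, changed by 0.70, Apoc1, an apolipoprotein, by 0.67, Fabp1, the liver fatty acid binding protein, by 0.65 and Neb, the giant muscle protein nebulin, by 0.64. Fabp1 levels were -5.83, -5.44 and -5.70 with heat and -6.37, -6.08 and -6.48 without, so both groups lay far below the reference. Neb was supported by its other probe, called higher by 0.50. Apoc1 changed by 0.39 on heated replicate 1 alone, and it lost its call in 3 of 19 alternatives. Stfa2, a cystatin, was called but not well above background on any array, so no fold is given. Of these 12 genes, Rmrp, C5ar2, Dusp26, Cdkn1c and Stfa2 kept the call under median centring, and the other 7 lost it.

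Falls beyond 1.5-fold were led by Nucks1 and Rlim. Nucks1, a chromatin protein of DNA repair, was at -0.53, -0.64 and -0.59 on heated arrays, against 0.41, 0.49 and 0.73 on controls, a change of -1.13 (SE 0.12, adjusted p = 7.65e-07). Its 3 other probes changed by -0.43 to -0.18 and 2 of them were called lower. Rlim, a ubiquitin ligase that acts in X inactivation, was at 0.07, -0.04 and -0.0032 with heat and at 1.03, 0.92 and 1.18 without, a change of -1.03 (adjusted p = 1.49e-06). Its 2 other probes changed by -0.30 and -0.18. In both genes every heated array lay below every control array, and the probe with the brightest signal showed the largest change.

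The other members of the 12 largest falls spanned -0.99 to -0.84. After Hspd1, they were Ccn4, a matricellular growth factor (-0.91), Lyz2, a lysozyme of macrophages (-0.89), Tnks2, a tankyrase (-0.89), Cbx3, a heterochromatin protein (-0.87), and Cenpe, a kinetochore motor (-0.86). Septin2, a cytoskeletal GTPase, changed by -0.86, Frs2, an adaptor of fibroblast growth factor receptors, by -0.85, the kinase Hipk3 by -0.85 and Metap2, a methionine aminopeptidase, by -0.84. Second probes told the genes apart: those of Septin2, Frs2, Hipk3, Cbx3, Cenpe and Metap2 included one called lower, whereas that of Tnks2 changed by 0.02 and that of Lyz2 by 0.11, neither called. Over all 89 falls beyond 1.5-fold, 64 had another probe; the brightest of these had the same sign for 53 and was itself called lower for 28, with a median change of -0.16 against -0.69 for the probe used. The 32 rises had 8 with another probe, of which 7 shared the sign and 4 were called. Called-lower genes were longer, with a median span of 36.9 kb against 14.3 kb for called-higher genes and 22.6 kb for all tested genes, among the 89.3% of tested genes with a RefSeq span.

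**Figure D2:**
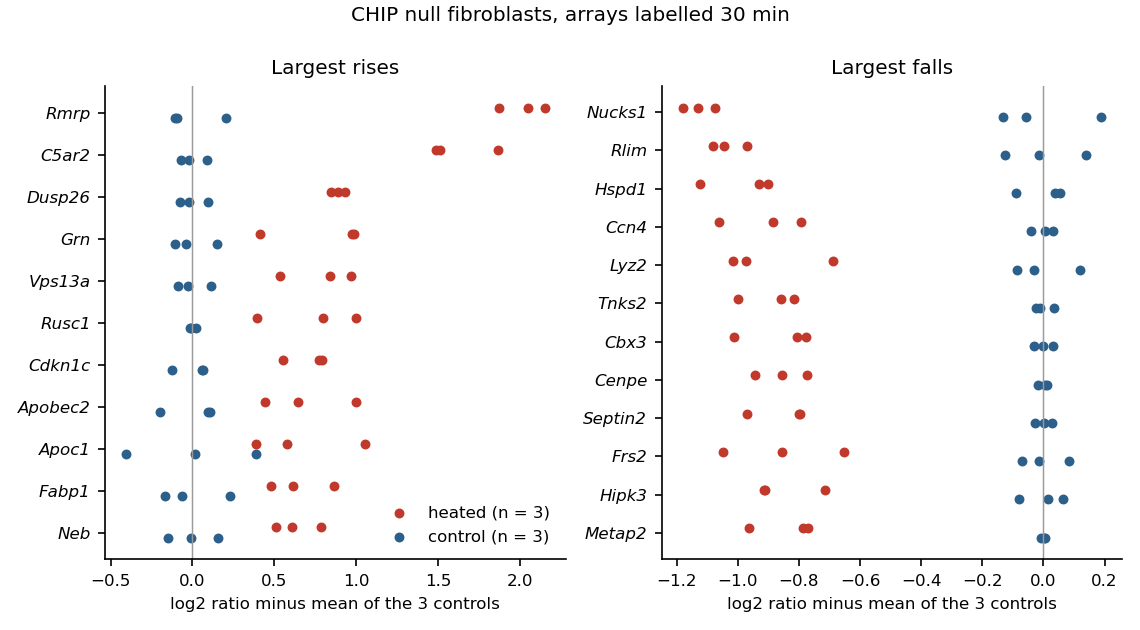
Log2 ratio on each array minus the mean of the 3 control arrays (horizontal axis) for the named genes with the largest rises (left) and falls (right), 1 point per array, heated in red and control in blue, CHIP null cultures labelled 30 min. The groups are widest apart for Rmrp among the rises and nearly touch for Apoc1.

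Turning to the heat shock genes, the list of inducible heat shock genes and HSF1 targets did not move as one. Of 29 members tested, 8 were higher (27.6%, against 22.6% of all genes), 9 lower (31.0%, against 12.6%) and 12 did not pass, and the median change was 0.12 against 0.03 over all genes. That median relative to all genes was 0.08 after loess but -0.09 with median centring and -0.07 with the scanner software's ratios.

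The inducible HSP70 gene Hspa1a did not pass the test. It read -0.51, -0.06 and 0.28 on heated arrays, against -0.53, -0.57 and -0.57 on controls, a change of 0.46 (SE 0.38, adjusted p = 0.364). The groups did not overlap, but heated replicate 1, on the slide of the controls, lay next to them, and its change alone was 0.05. The call was made in 3 of 19 alternatives, with an adjusted p as low as 0.0183. Among them was the fit of only the 12 arrays labelled 30 min, at the same change. Of 3 other Hspa1a probes, which changed by 0.22 to 0.46, 1 was called higher. Hspa1b is a near-identical copy of this gene, so signals of the pair may be shared. Under the 240 min label the same gene rose by 2.24 in CHIP null cultures (adjusted p = 0.00027). The difference between the labels was -1.78 and did not pass (adjusted p = 0.088). Hspa8, the constitutive HSP70, was called higher by 0.25 with 0.43, 0.83 and 0.75 on heated arrays and 0.54, 0.37 and 0.34 on controls, which overlap. With slide as a block its change relative to the median of all genes was -0.03.

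Other members of the HSP70 and HSP110 group fell or did not pass. Hsph1, the HSP110 nucleotide exchange factor of HSP70, was at 0.534, 0.640 and 0.809 with heat and at 1.060, 1.119 and 1.204 without, a change of -0.47 (adjusted p = 3.77e-05). Hspa5, the HSP70 of the endoplasmic reticulum, was at 0.66, 0.57 and 0.71 with heat and 0.83, 0.86 and 0.90 without, a change of -0.22 (adjusted p = 0.0124). Hspa4, a second HSP110 gene, changed by -0.15 (adjusted p = 0.037), and Hspa4l by -0.12 without passing, although 2 of its 3 other probes were called lower. Hspa5 and Hspa4 lost the call when single arrays were left out. Hspa4 also changed sign relative to all genes, to 0.0095, under the scanner software's ratios.

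Of the J-domain proteins that serve HSP70, Dnajb4 was at -0.22, -0.05 and -0.13 with heat and 0.31, 0.47 and 0.36 without, a change of -0.51 (adjusted p = 2.8e-05), and its other probe, at -0.26, was called lower too. Dnajb1, the main inducible HSP40, stood at -0.09, 0.01 and -0.09 with heat and at 0.25, 0.26 and 0.19 without, a change of -0.29 (adjusted p = 0.000168), but its other probe changed by 0.02. In both genes every heated array lay below every control. Bag3, a nucleotide exchange factor that links HSP70 to autophagy, changed by -0.12 without passing, and by -0.23 on heated replicate 1 alone.

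The HSP90 genes were lower or did not pass. Hsp90aa1, the inducible cytosolic HSP90, read 0.37, 0.86 and 0.86 on heated arrays and 1.28, 1.09 and 1.17 on controls, a change of -0.48 (adjusted p = 0.000411). The array on the controls' slide was the lowest, so the within-slide change was -0.81. Hsp90ab1, its constitutive counterpart, changed by -0.09 without passing. Chordc1, an HSP90 co-chaperone, changed by -0.37 (adjusted p = 0.00176), with its other probe at -0.23 and called lower. Stip1, which bridges HSP70 and HSP90, was at 1.587, 1.003 and 0.927 with heat and 0.851, 0.906 and 1.004 without, a change of 0.25 that missed the threshold (adjusted p = 0.0538). Heated replicate 1, on the slide of the controls, was the highest array. That array alone, as with slide as a block, gave a change of 0.67, while without it the change was 0.04 (adjusted p = 0.674). Of 19 alternatives, 7 made the call. Fkbp4 and Ahsa1, further HSP90 cofactors, changed by 0.07 and -0.11 without passing.

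The mitochondrial pair split. Hspd1 was at -0.49, -0.30 and -0.27 on heated arrays and at 0.67, 0.54 and 0.69 on controls, a change of -0.99 (SE 0.12, adjusted p = 3.21e-06), and its other probe, at -0.55, was called lower too. Hspe1 was at 1.04, 1.24 and 1.16 on heated arrays and at 0.98, 0.88 and 0.76 on controls, a change of 0.27 (SE 0.06, adjusted p = 0.00107). The 2 genes that share the printed window thus moved apart on these arrays, although on heated replicate 1 alone the change of Hspe1 was 0.17. The call of Hspe1 was lost in 3 of 19 alternatives.

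The small heat shock proteins of the list, which hold unfolded clients without ATP, were all called higher after loess. Under median centring Cryab and Hspb1 lost the call (adjusted p = 0.852 and 0.492), and Hspb8 turned to -0.02 relative to all genes. Cryab was at -0.03, -0.08 and -0.16 with heat and -0.51, -0.38 and -0.46 without, a change of 0.36 (adjusted p = 0.000154). Hspb1 was at 0.02, 0.04 and -0.04 with heat and -0.29, -0.21 and -0.35 without, a change of 0.29 (adjusted p = 0.00469). Hspb8 changed by 0.21 (adjusted p = 0.00598), a call kept in 15 of 19 alternatives. The groups did not overlap for any of these genes, and the other probe of Cryab changed by 0.09 without passing.

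Ubb, a precursor that supplies ubiquitin for damaged proteins, changed by 0.23 (adjusted p = 0.016) but relative to all genes it was -0.13 under the scanner software's ratios and -0.03 with a background offset of 10. Among the remaining listed genes, Ier5, an early gene that modifies HSF1, changed by -0.30 (adjusted p = 0.000559) and Rgs2, an inhibitor of G protein signalling, by 0.36 (adjusted p = 0.00666). The Rgs2 call was lost without heated replicate 2, and its change on the controls' slide was -0.02. Serpinh1, Hmox1, Mt1, Mt2 and Dedd2, with changes of 0.12 to 0.17, did not pass. On heated replicate 1 alone Serpinh1 changed by 0.31.

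**Figure D3:**
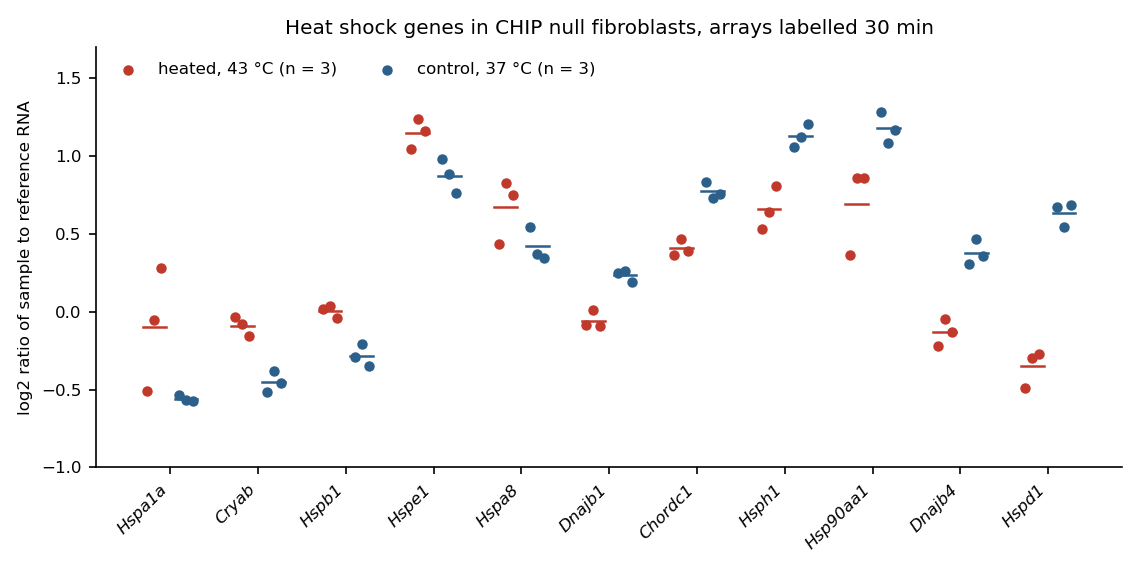
Log2 ratio of sample to reference (vertical axis) for selected heat shock genes in CHIP null cultures labelled 30 min, 1 point per array and bars at the group means, heated in red and control in blue, ordered by change. Hspa1a has 3 spread heated arrays, Cryab, Hspb1 and Hspe1 are higher with heat, and the 6 genes at the right, ending with Hspd1, are lower.

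None of the 7 tested heat shock factors and regulators passed. Their changes ran between -0.04 for Pgam5, a mitochondrial phosphatase, and 0.15 for Hikeshi, which carries HSP70 into the nucleus. Hsf1 itself read 0.01, -0.18 and -0.32 with heat and -0.37, -0.20 and -0.24 without, a change of 0.11 (adjusted p = 0.246) with overlapping groups. On heated replicate 1 alone, the only heated array on the controls' slide, that change was 0.28. With median centring Hsf1 was lower, by -0.17 relative to all genes. Hsbp1, an HSF1-binding protein, changed by -0.02.

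Co-chaperones and chaperonins outside the inducible list were examined next. Of 26 cytosolic co-chaperones, 4 were higher (15.4%, against 22.6% of all genes) and 4 lower (15.4%, against 12.6%), shares near those of all genes. Dnaja2 (-0.53), Dnaja1 (-0.50) and Bag5 (-0.48), J-domain and nucleotide exchange partners of HSP70, were called lower, with 1 of 2 other probes of Dnaja1 lower as well. Dnajc2, a ribosome-bound J-domain protein, was called higher by 0.30, but its other probe, at -0.22, was called lower and the call was lost without heated replicate 1. The chaperonin CCT and its helper prefoldin, which fold actin and tubulin, had 3 higher and 6 lower of 14 tested, against 22.6% and 12.6% of all genes. Vbp1 (-0.49), Pfdn2 (-0.29) and Cct8 (-0.27) were lower and Pfdn5 was higher by 0.28. In mitochondria, Hspa9, the matrix HSP70, changed by -0.39 (adjusted p = 0.000287) and the protease Htra2 by 0.27 (adjusted p = 0.00374), and 3 of 14 mitochondrial chaperones and proteases were higher (21.4%) and 2 lower (14.3%), again near the shares of all genes.

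The genes of the series' title were then examined. Daxx, a histone chaperone that also regulates apoptosis, read -0.39, -0.23 and -0.19 on heated arrays and -0.24, -0.25 and -0.34 on controls, a change of 0.01 (adjusted p = 0.945). The kinases that bind it changed more. Hipk2 was at -0.58, -0.67 and -0.59 with heat and 0.09, 0.20 and 0.18 without, a change of -0.77 (adjusted p = 2.41e-06), although its other probe changed by 0.03. Hipk3 was at -1.78, -1.58 and -1.77 with heat and -0.80, -0.94 and -0.85 without, and its other probe, at -0.39, was called lower too. Hipk1 changed by -0.51, and its 2 other probes by -0.13 to 0.09 without a call. All 3 kinases were lower on every heated array than on any control array for the probe used.

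Of the 22 tested genes of DAXX, HIPK and ASK1-JNK signalling, 6 were lower (27.3%, against 12.6% of all genes) and 3 higher (13.6%, against 22.6%). The falls also included Usp7, a deubiquitinase of p53 and Mdm2 (-0.43). The rises were Mapk8ip1, a JNK scaffold (0.33), the kinase Mapk8, also called JNK1 (0.20), and Rassf1, a tumour suppressor that binds Daxx (0.19). The call of Mapk8 was lost when single arrays were left out and was kept in 9 of 18 alternatives. Relative to all genes, Mapk8 was -0.60 with the scanner software's ratios and Rassf1 was -0.06 with median centring. Mapk8ip1 lost the call in 3 of 19 alternatives, among them median centring (adjusted p = 0.523).

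Trp53, which encodes p53, was slightly higher. It read 0.37, 0.54 and 0.47 with heat and 0.14, 0.23 and 0.25 without, a change of 0.25 (adjusted p = 0.00227), and its other probe was called higher by 0.28. On heated replicate 1 alone the change was 0.16, and the call was lost in 3 of 19 alternatives. Of 22 tested p53 targets in arrest, repair and feedback, 3 were higher (13.6%, against 22.6% of all genes) and 6 lower (27.3%, against 12.6%). Of 18 in cell death, 4 were higher (22.2%, close to all genes) and 4 lower (22.2%).

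Falling targets included Pmaip1, the BH3-only protein NOXA, at 1.12, 0.90 and 1.06 with heat and 1.67, 1.61 and 1.90 without, a change of -0.70 (adjusted p = 1.17e-05). Zmat3, an RNA-binding p53 target, changed by -0.67, Plk2, a polo-like kinase, by -0.51 and Mdm2, the ubiquitin ligase of p53, by -0.47. The other probe of Mdm2, at -0.19, was called lower as well. Gadd45g, a growth arrest protein, was at 2.16, 2.17 and 2.06 with heat and 1.73, 1.59 and 1.52 without, a change of 0.52 (adjusted p = 9.93e-06), and Siva1, a death-domain binding protein, rose by 0.40. With median centring Gadd45g and Siva1 lost the call (adjusted p = 0.196 and 0.940), while Pmaip1, Zmat3, Plk2 and Mdm2 kept it in all 19 alternatives. Cdkn1a, the p21 inhibitor of the cell cycle and chosen after its values were seen, was at 0.76, 0.73 and 0.64 with heat and 0.40, 0.49 and 0.51 without, a change of 0.25 (adjusted p = 0.011). That call was lost without control replicate 1 (adjusted p = 0.059) and with median centring (adjusted p = 0.235).

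Mitosis genes were more often lower than genes overall. Of 32 tested genes of mitosis, 19 were lower (59.4%, against 12.6% of all genes), none was higher, 13 did not pass, and the median change was -0.18. With the scanner software's ratios 13 were lower and none was higher. Cenpf, a kinetochore protein, was at 0.21, 0.14 and 0.18 with heat and 0.83, 0.92 and 0.90 without, a change of -0.71 (adjusted p = 5.33e-06). Cenpe was at 0.95, 1.03 and 1.12 with heat and 1.90, 1.90 and 1.87 without, with 1 of 2 other probes called lower. Ccna2, the cyclin of S phase and G2, changed by -0.59 and Prc1, a midzone microtubule bundler, by -0.57. Of 30 DNA replication genes 6 were lower (20%), 1 was higher (3.33%) and 23 did not pass, with a median change of -0.01 and 14 changes above 0. Rrm2, a subunit of ribonucleotide reductase, changed by -0.55, Pola1, a DNA polymerase subunit, by -0.42 and Mcm4, part of the replicative helicase, by -0.38.

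Splicing factors were also more often lower than higher. Of 36 SR and hnRNP splicing factors, 17 were lower (47.2%, against 12.6%), 1 was higher and the median change was -0.17. Hnrnpa3 was at -0.41, -0.34 and -0.45 with heat and 0.25, 0.19 and 0.44 without, a change of -0.69 (adjusted p = 2.55e-07), with 1 of 3 other probes called lower. Hnrnph1 was at -1.13, -0.78 and -0.73 with heat and -0.22, -0.22 and -0.19 without, a change of -0.67. Hnrnpa2b1 changed by -0.50 and its other probe by -0.03, without a call. Of 76 zinc finger repressors 22 were lower (28.9%) and 4 higher (5.26%), with Zfp655 at -0.64, though none of its 3 other probes was called, and Zfp148 at -0.54, with both other probes called lower. Among 24 chromatin regulators 9 were lower (37.5%) and 3 higher (12.5%). Rbbp7, a histone-binding protein, changed by -0.55 and Setd2, a histone methyltransferase, by -0.47, while Smarca4, the BRG1 remodelling ATPase, was higher by 0.47, with 2 other probes at 0.05 to 0.08 that were not called.

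Immediate early genes, which respond within minutes to growth factors and stress, fell more often than they rose: 11 of 29 were lower (37.9%, against 12.6% of all genes) and 2 higher (6.90%, against 22.6%). Klf6 changed by -0.41, with its other probe at -0.04 and not called. Egr2 was at 0.49, 0.51 and 0.62 with heat and 1.01, 0.94 and 0.90 without, a change of -0.41 (adjusted p = 0.000148). Egr1 was at -0.28, -0.35 and -0.40 with heat and 0.04, 0.01 and 0.05 without, a change of -0.38 (adjusted p = 0.000274). Atf3, a stress-induced transcription factor, was higher by 0.31 (adjusted p = 0.00139).

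Ribosomal protein genes were higher in nearly all cases after loess. Of 77 tested cytosolic ribosomal protein genes 72 were higher (93.5%, against 22.6% of all genes), none was lower, and the changes spanned 0.10 to 0.58 with a median of 0.37. Relative to all genes that median was 0.34 after loess, 0.23 with median centring, where 1 gene was called, and 0.06 with the scanner software's ratios, where 23 were higher and 3 lower. Rpl39 was at 0.72, 0.69 and 0.60 with heat and 0.12, 0.20 and -0.07 without, a change of 0.58 (adjusted p = 1.11e-05). Rps27 was at 0.33, 0.21 and 0.09 with heat and -0.42, -0.22 and -0.46 without, a change of 0.58 (adjusted p = 2.47e-05). Rps23 changed by 0.53, but relative to all genes it was -0.0087 with the scanner software's ratios.

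Nuclear genes for mitochondrial proteins rose in smaller part. Of 75 mitochondrial ribosomal protein genes 28 were higher (37.3%, against 22.6% of all genes) and 1 lower, the list's median relative to all genes being 0.07 after loess and -0.07 with median centring, with Mrpl21 at 0.45 and Mrpl50 at -0.32. The other probe of Mrpl50 was at -0.04 and not called. Of 74 oxidative phosphorylation subunits 40 were higher (54.1%) and 2 lower, their median relative to all genes being 0.15 after loess and -0.05 with median centring. Cox6b1 and Cox4i1, subunits of cytochrome oxidase, changed by 0.49 and 0.48. Ndufc1, of complex I, was at -0.27, -0.06 and -0.14 with heat and -0.59, -0.59 and -0.65 without, a change of 0.45 (adjusted p = 4.38e-06), with its other probe called higher by 0.31. Atp5g3, of the ATP synthase, changed by -0.27 and lost the call without heated replicate 1.

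Of 40 proteasome genes 12 were higher (30%, against 22.6% of all genes) and 2 lower (5%, against 12.6%), and with median centring none was higher and 22 lower. The list held Psmb10, a catalytic subunit of the immunoproteasome, at 0.28 and Psme4, the activator PA200, at -0.68. Among 39 ubiquitin genes and ligases 6 were higher (15.4%) and 10 lower (25.6%), including Trip12 (-0.54) and Cul3 (-0.50). Sterol synthesis had 3 higher (11.1%) and 6 lower (22.2%) of 27, with Hmgcs1, the synthase before HMG-CoA reductase, at -0.57, although its other probe changed by -0.09 and was not called.

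**Figure D4:**
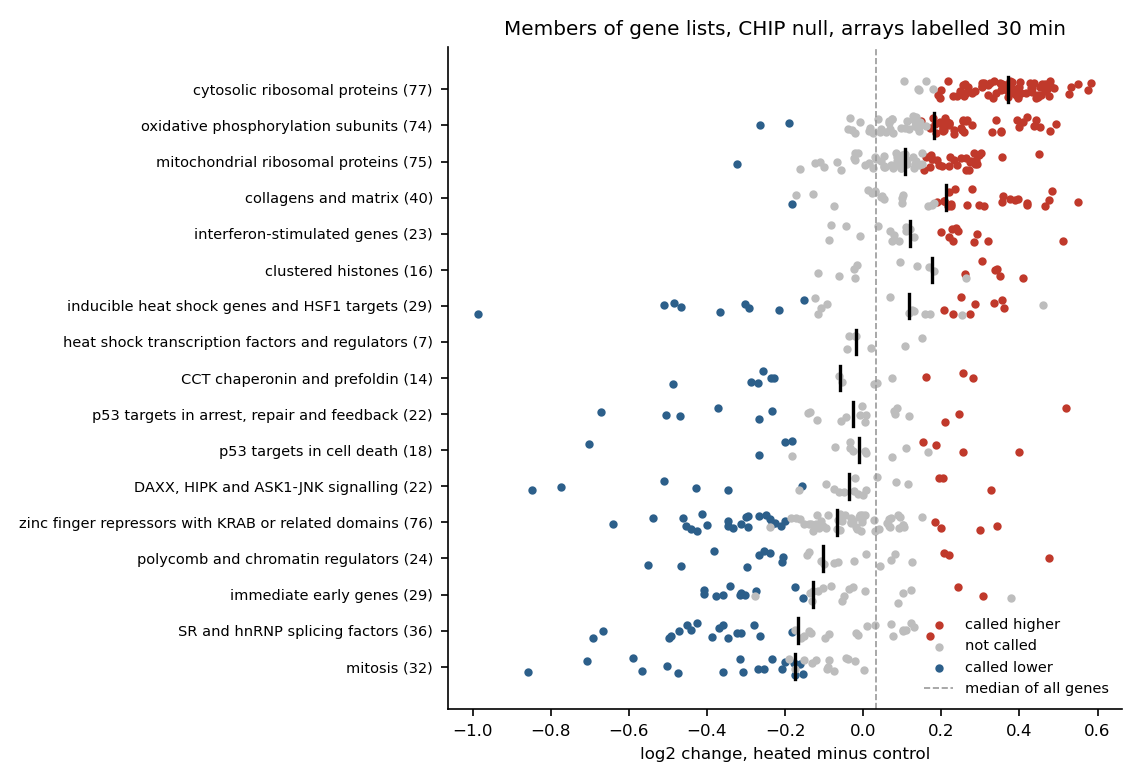
Log2 change with heat (horizontal axis) of each tested member of 17 gene lists in CHIP null cultures labelled 30 min, 1 point per gene coloured by its call, black bars at list medians and a dashed line at the median of all genes. Cytosolic ribosomal proteins lie furthest to the right, with a median of 0.37, and mitosis and splicing factors to the left, with medians of -0.18 and -0.17.

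After loess, genes of the fibroblast matrix were more often higher than genes overall. Of 40 collagens and matrix genes 23 were higher (57.5%, against 22.6%) and 1 lower, with a median change of 0.21, and 12 were higher and none lower with the scanner software's ratios. With median centring none was higher and 10 were lower, and the list's median relative to all genes was 0.0036, against 0.18 after loess. Fbln2, the matrix protein fibulin 2, was at 2.65, 2.74 and 2.65 with heat and 2.10, 2.27 and 2.03 without, a change of 0.55 (adjusted p = 3.21e-06). The collagenase Mmp13 changed by 0.48, a call kept in 15 of 19 alternatives. Of 15 fibroblast markers, 7 of which are also in the matrix list, 7 were higher (46.7%) and 2 lower (13.3%), with the proteoglycan Dcn at 0.48, and the list's median relative to all genes was 0.14 after loess and -0.04 with median centring. Interferon-stimulated genes had 10 of 23 higher (43.5%) and none lower, led by Bst2, the virus-tethering protein tetherin, at 0.40, 0.43 and 0.41 with heat and -0.06, -0.14 and -0.11 without. With median centring Bst2 lost the call (adjusted p = 0.363), while the interferon list's median relative to all genes was 0.16, against 0.09 after loess. Of these 23 genes, 14 were well above background on all heated arrays and 17 on all control arrays.

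Of 23 chemokines and cytokines 6 were higher (26.1%, near the 22.6% of all genes) and 5 lower (21.7%, against 12.6%). Ccl7, a chemokine for monocytes, was at 1.97, 1.78 and 1.99 with heat and 2.54, 2.42 and 3.06 without, a change of -0.76 (adjusted p = 1.05e-05), with its other probe at -0.62 and called lower. Cxcl5, which attracts neutrophils, was at 1.72, 1.80 and 1.67 with heat and 2.18, 1.95 and 3.40 without, a change of -0.78 (adjusted p = 0.00213). Il6 was at 0.20, 0.30 and 0.30 with heat and 0.56, 0.48 and 0.97 without, a change of -0.41 (adjusted p = 0.000719). In all of them control replicate 3 was the highest array. Without it the change of Cxcl5 was -0.33 (adjusted p = 0.00916) and that of Il6 -0.25 (adjusted p = 0.0117).

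Markers of other cell types that an embryo culture can hold were more often called higher in most lists than the 22.6% of all genes. Endothelial markers had 6 of 8 higher (75%) and none lower, their mean level being -1.32 to -1.15 on heated arrays against -1.59 to -1.46 on controls, with 3 of the 8 well above background on all arrays of either group. Muscle markers had 7 of 14 higher (50%) and 1 lower, neural and glial markers 8 of 14 (57.1%) and none, and epithelial markers 5 of 10 (50%) and none. On all control arrays 13 of the muscle, 6 of the neural and glial and 6 of the epithelial markers were well above background. Mesothelial markers had 2 of 6 higher (33.3%), nearer the share of all genes, and erythroid markers 2 of 3, with none lower in either. Of the mesothelial markers 1 was well above background on all control arrays, against 3 of the erythroid ones. Examples of rises were Egfl7 of endothelium (0.35) and Tnnt2 and Ckm of muscle (0.58 and 0.43), of which Tnnt2 changed by 0.16 on heated replicate 1 alone. Actc1, the cardiac actin, went the other way: it read 0.12, -1.40 and -0.99 with heat and -0.42, 0.02 and -0.04 without, a change of -0.61 (adjusted p = 0.0281) that is the muscle list's largest in size. Its groups overlap, and on heated replicate 1 alone the change was 0.26. The epithelial median relative to all genes was 0.18 after loess and -0.03 with median centring. Egfl7, Tnnt2 and Ckm lay below the reference, in the range of ratios where most genes were called higher; the part of that in the marker rises was not tested. In bulk RNA, more cells of a type and more RNA per cell cannot be told apart.

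Against wildtype fibroblasts under the same label, the heat change differed at few genes. Wildtype cultures had 1964 called genes (14.6%), 913 higher (6.77%) and 1051 lower (7.79%), and the changes of the genotypes correlated at 0.744 over 13488 genes, which share the arrays' reference and design and, in part, slides. Rises shared by the genotypes were 739, 24.2% of the null's and 80.9% of the wildtype's, and shared falls were 765, 44.97% of the null's and 72.8% of the wildtype's, while 9 genes were called in opposite directions. The difference itself passed at 60 genes (0.445%), 52 with a more positive change in CHIP null cells (0.386%) and 8 with a more negative one (0.0593%). That count was 5 with median centring, and leaving out CHIP null heated replicate 1 raised it to 232. None of the 29 inducible heat shock genes and no member of the p53 or DAXX lists was among the 60. The inducible heat shock list had 8 higher and 9 lower in CHIP null cells and 4 higher and 8 lower in wildtype cells. Cytosolic ribosomal proteins had 72 higher in CHIP null cells, with a median of 0.37, and 55 in wildtype cells, with a median of 0.26. Mitosis genes had 19 lower in CHIP null cells, with a median of -0.18, and 20 in wildtype cells, with a median of -0.23. Matrix genes had 23 higher and 1 lower in CHIP null cells and 5 higher and 2 lower in wildtype cells, and none of these 40 genes differed between the genotypes by the test.

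Among named genes, the largest positive differences were those of Marco, Lyz1, Lyz2, Adam8 and Adgre1. Marco, a scavenger receptor of macrophages, read -1.69, -1.69 and -1.71 on heated null arrays and -2.08, -1.77 and -1.99 on null controls, against -1.16, -1.27 and -1.04 on heated wildtype arrays and 0.56, 0.44 and 0.26 on wildtype controls. Its change was thus 0.25 in CHIP null and -1.58 in wildtype cells, a difference of 1.83 (adjusted p = 1.32e-11). The wildtype controls were the 3 highest of these 12 arrays and did not overlap with the rest. Lyz1, a lysozyme, changed by -0.12 in CHIP null and -1.50 in wildtype cells, Adam8, a membrane protease, by -0.19 and -1.30, and Adgre1, an adhesion receptor of macrophages, by 0.10 and -0.73. Lyz2 changed by -0.89 in CHIP null and -2.09 in wildtype cells. Adgre1 was not well above background on any heated CHIP null array. The differences for Marco and Adam8 passed under all 24 alternatives and that for Lyz2 under 23 of them. Those for Lyz1 and Adgre1 passed under 22 of the 23 alternatives in which they were tested, since the stricter background filter left them out. Both were lost with the scanner software's ratios (adjusted p = 0.362 and 0.282).

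The macrophage list as a whole had 3 of 14 higher (21.4%) and 1 lower (7.14%) in CHIP null cultures and 10 lower and none higher in wildtype cultures, and 9 of its genes differed between the genotypes. Its mean level in the null cultures was -1.22 to -1.14 with heat and -1.25 to -1.13 without, ranges that overlap, and 4 of the 14 markers were well above background on all heated and 10 on all control null arrays. The part of macrophages among the cells in these differences was not tested. Relative to all genes, the list's median in CHIP null cultures was 0.06 after loess and with median centring, but -0.42 with the scanner software's ratios. On the negative side, Cse1l, a nuclear export receptor, changed by -0.59 in CHIP null and -0.12 in wildtype cells, Hnrnpa3 by -0.69 and -0.24, Twist2 by -0.48 and -0.04 and Egr1 by -0.38 and 0.07. Those 4 differences passed in fewer alternatives, 9, 8, 11 and 7 of 24. Slide as a block and slides with both treatments, among these, leave 1 heated CHIP null array and 1 wildtype control array. With slide as a block the 4 differences were -0.42, -0.47, -0.50 and -0.22.

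**Figure D5:**
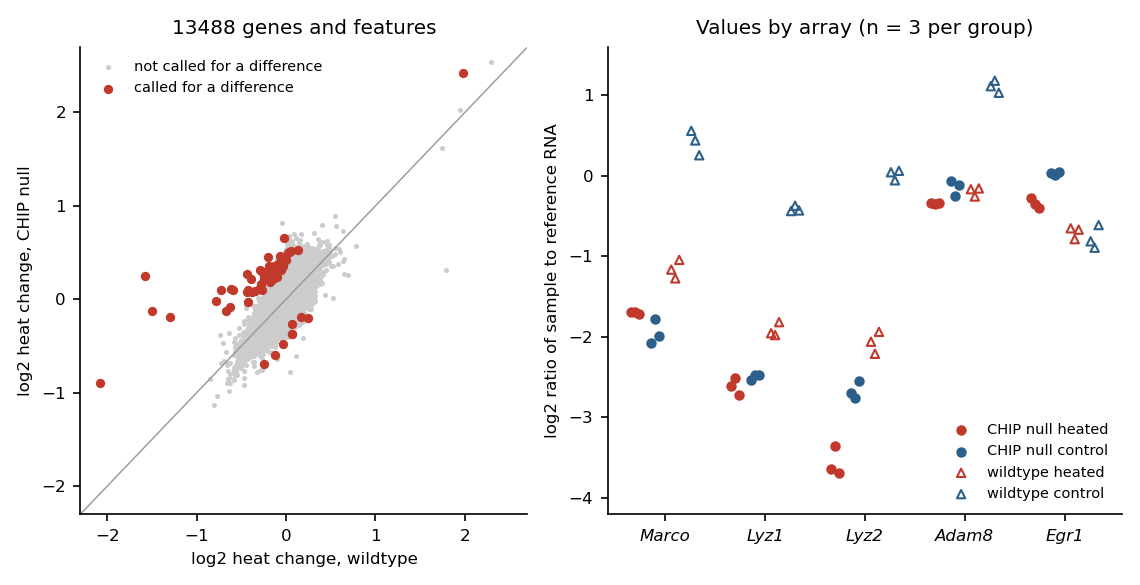
Left, log2 heat change in CHIP null (vertical axis) against wildtype cultures (horizontal axis) labelled 30 min, 1 point per gene, with the 60 genes called for a difference in red and a line of equality. Right, log2 ratio of sample to reference (vertical axis) on each array for 5 of them: Marco, Lyz1, Lyz2 and Adam8 are highest in wildtype controls, and Egr1 is highest in CHIP null controls.

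Compared with CHIP null cultures under the 240 min label, which had 5263 called genes (39%), the heat change differed at 320 genes (2.37%), 174 more positive (1.29%) and 146 more negative (1.08%) under the 30 min label. The sets were on different slides, so time, slide and hybridisation cannot be told apart, and the direction of time is open to the disagreement of labels described above. Among heat shock genes, Hsp90aa1, Hsph1 and Dnajb4 changed by -0.48, -0.47 and -0.51 under the 30 min label and by 0.04, -0.05 and -0.10 under the 240 min label. Each of these differences passed (adjusted p = 0.0383, 0.0302 and 0.0430). Rpl39 changed by 0.58 against 0.04, Gadd45g by 0.52 against 0.07 and Vbp1 by -0.49 against 0.05. Over all genes, 24.5% were higher and 14.5% lower under the 240 min label, against 22.6% and 12.6% under the 30 min label. Of 32 mitosis genes, 19 were lower and none higher under the 30 min label. Under the 240 min label 9 of them were lower and 6 higher, and 4 differed. Of 29 immediate early genes, 11 were lower and 2 higher under the 30 min label and 18 lower and none higher under the 240 min label, and 5 differed. Of 77 cytosolic ribosomal proteins, 72 were higher under the 30 min label and 26 under the 240 min label, and 5 differed. The differences of other large falls did not pass: Nucks1 changed by -1.13 under the 30 min label and -1.04 under the 240 min label, Rlim by -1.03 and -1.06, and Hspd1 by -0.99 and -0.83.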

How the data were processed

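Total RNA of 24 fibroblast cultures, 500 ng each per the labels, was measured on Agilent whole mouse genome arrays of 4 arrays a slide, with the sample in Cy5 and the reference in Cy3 and no dye swap. The deposited scanner files hold spot intensity values extracted with Feature Extraction 9.1.3.1, per the file headers. Their log10 ratios, made by the same software per the file headers, served as 1 alternative. The authors' deposited value table of 28139 probes holds a score on a log scale that is not stated: against the scanner files, control columns matched log10 ratios divided by the natural log of 2, and heated columns the same minus the mean of the 3 controls. Its medians for the 6 columns were -0.0012, 0.0172 and 0.0230 in heated and 0.0097, -0.0061 and -0.0018 in control cultures; it was used for the time check and 1 alternative. Background was corrected with normexp (offset 50), each array normalised by loess, 333 outlier spots left out, and spots of a probe averaged. A gene's value is that of its brightest probe, and the gene was tested where some group, of the 8, had this probe's Cy5 signal flagged well above background in each of its 3 arrays. Of 41174 probes, 22951 were named through accessions, 6659 by symbol and 3109 by synonym from RefSeq. limma 3.58.1 (R 4.3.3) fitted 8 group means to all 24 arrays (16 residual and 11.7 prior degrees of freedom), with Benjamini-Hochberg adjustment over 13488 genes and calls at an adjusted p below 0.05; the procedure was tested on simulated data. Signals reflect arrays and not counts, so the number of arrays limits the precision. The p-values rest on the spread between samples within groups, pooled over all 8 groups and drawn towards the spread of other genes.

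The arrays, gene lists and tests were chosen with earlier results of these data known. Named genes are the 12 largest called and separated changes a direction with a RefSeq symbol, the 5 largest genotype differences a direction, up to 4 called members of each list and members of the heat shock, heat shock factor and DAXX lists, of which some are counted but not reported here by name. Alternatives were median centring, the scanner software's log ratios, an offset of 10, no filter and a stricter one, and the mean of all probes. Others were fewer arrays in the fit, replicate number and slide as blocks, a trended robust fit, and leaving out each array. The authors' table, under its own time labels, was a further alternative. Leaving out wildtype arrays and keeping only slides with both treatments were chosen after seeing the data.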

Additional observations from a re-analysis of the deposited data

Results flagged for a closer look

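The results listed here are those for which the change with heat differed, by a test of the difference itself, between genotypes or between time labels. Positive differences mean a more positive change in CHIP null cells or under the 30 min label.

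Between genotypes, the heat change in CHIP null minus wildtype cultures was 1.83 for Marco, 1.38 for Lyz1, 1.19 for Lyz2, 1.11 for Adam8 and 0.83 for Adgre1, all of which are expressed in macrophages. Adgre1 was not well above background on any heated CHIP null array. The difference was -0.47 for Cse1l (adjusted p = 0.0324), -0.45 for Hnrnpa3 (adjusted p = 0.0384), -0.45 for Twist2 (adjusted p = 0.0324) and -0.45 for Egr1 (adjusted p = 0.0421).

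Between time labels, within CHIP null cultures, the change under 30 min minus that under 240 min was 0.91 for Grn, 0.64 for Cdkn1c, 0.54 for Rpl39, 0.50 for Fbln2, 0.45 for Gadd45g, 0.43 for C5ar2, 0.43 for Dnajc2, 0.40 for Smarca4 and 0.31 for Ndufc1. It was -1.15 for Lyz2, -0.54 for Vbp1, -0.52 for Hsp90aa1, -0.47 for Cse1l, -0.43 for Lyz1, -0.42 for Hsph1, -0.42 for Pola1, -0.41 for Dnajb4, -0.40 for Rbbp7 and -0.39 for Adam8. The adjusted p of these 19 differences lay between 1.14e-06 for Lyz2 and 0.0472 for Dnajc2. C5ar2 was not well above background on any control array labelled 30 min, so its difference is not exact. Wildtype arrays shared a label with the CHIP null arrays but not every slide, and the 2 labels shared no slide.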

How the results depend on the processing

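The number of called genes stayed within 1.5 times of 4753 except with slide as a block (2692, of which 1587 higher and 1105 lower) and on slides with both treatments (2617, with 1554 and 1063). Median centring gave 42 higher and 5212 lower. Changes over 1.5-fold, 121 in the report, numbered 1324 with median centring, 1415 with the scanner software's ratios, 493 with an offset of 10, 53 with the mean of probes, 229 with either slide setting and 932 in the authors' table. Leaving out 1 CHIP null array gave 3580 to 4495 calls.

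The 60 genotype differences became 5 with median centring, 39 with an offset of 10, 29 with the stricter filter and 17 with 12 arrays. They became 13 with the replicate block, 18 with slide random and 33 with the trended robust fit. They became 16 to 232 without a CHIP null array (232 without heated replicate 1 and 17 without heated replicate 2) and 21 to 92 without a wildtype array. Slide fixed and slides with both treatments leave 1 heated CHIP null array, so their counts are not given. The 320 label differences became 8, 114 and 106 with median centring, the scanner software's ratios and an offset of 10. The cause of these shifts was not tested. The Stub1 difference kept its direction and call under all 24 alternatives.

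Slide as a block and slides with both treatments both compare heated replicate 1 alone with the controls. Relative to all genes, signs turned there for Hspa8 (-0.027), Rgs2 (-0.058) and Actc1 (0.2224). They turned under median centring for Hspb8 (-0.017), Mt1 (-0.091), Hsf1 (-0.17), Rassf1 (-0.060), Fkbp4 (-0.17), Dedd2 (-0.094) and 8 of 41 lists: inducible heat shock genes (-0.094), mitochondrial chaperones (-0.097), mitochondrial ribosomal proteins (-0.067), oxidative phosphorylation (-0.046), proteasome (-0.140), glycolysis and hypoxia (-0.091), fibroblast (-0.039) and epithelial markers (-0.032). Over all alternatives 15 lists turned at least once. The scanner software's ratios turned Hspa4 (0.0095), Pfdn5 (-0.0016), Rps23 (-0.0087), Marco (-0.053), Adgre1 (-1.51), Mapk8 (-0.60) and Ubb (-0.13), an offset of 10 turned Ubb (-0.027), and the stricter filter turned the X and Y transcripts (-0.058). Other values of named genes kept direction and side of the threshold in 2241 cases, fell below it in 136 and rose above it in 43. In 23 more, from 11 genes that did not pass in the report, the sign relative to all genes turned without a call, Serpinh1, Hmox1, Mt2, Hsp90ab1 and Daxx among them.

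Same replicate numbers did not pair the arrays (correlations of deviations -0.11, 0.20 and -0.05), and with the replicate block 4268 genes were called. Of the called genes, 241 were not well above background on any of the 6 arrays, and 26 rises and 92 falls have only a bound on the dim side.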

Other observations

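Lists that the comparisons above do not use gave further counts in the CHIP null cultures labelled 30 min, read against 22.6% higher and 12.6% lower over all genes. Clustered histone genes, whose messages mostly lack a poly(A) tail, had 6 of 16 higher and none lower, with a median change of 0.18. Nucleolar genes of ribosome biogenesis had 1 of 30 higher and 7 lower, with a median of -0.05, beside the 72 of 77 ribosomal protein genes that were higher. Genes of the endoplasmic reticulum's unfolded protein response had 3 of 24 higher and 5 lower, and ATF4 targets of amino acid stress 4 of 27 higher and 4 lower. NRF2 and metallothionein stress genes had 4 of 22 higher and 4 lower, and genes of glycolysis and the hypoxia response 4 of 24 higher and 4 lower. The BCL2 family and caspases, which set the threshold of apoptosis, had 4 of 20 higher and 2 lower, with changes between -0.26 and 0.21. Smooth muscle genes and SRF targets had 4 of 19 higher and 5 lower, and kinesin and dynein motors 4 of 23 higher and 5 lower.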
